A study of Mus musculus with 8 samples.

Results

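Cytosolic ribosomal proteins are the structural proteins of the ribosome that translates messenger RNA outside mitochondria. Their genes were taken as every row whose gene symbol has the form Rpl, Rplp or Rps followed by a number and, where present, a final a or x, together with Rpsa. By this rule 76 of the 24421 genes in the deposited tables were members, 46 coding for large subunit proteins and 30 for small subunit proteins. Genes outside this naming form, among them Rps3a1, Fau and Gnb2l1 (an older symbol of Rack1), were not members. The 7 rows named as ribosomal protein pseudogenes were not members either.

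RNA was measured in mouse embryonic stem (ES) cells of a CAST/Ei x 129/Sv/Jae hybrid, either wild type (WT) or mutant (HNRNPK 6A). The protein HNRNPK binds RNA and links the X-inactivation RNA Xist to Polycomb repression. The sources used here do not say what 6A substitutes. Day 0 cells had been kept with leukemia inhibitory factor (LIF) on irradiated fibroblast feeders, which were removed. Day 14 cells had differentiated without LIF, for 4 days in suspension as embryoid bodies and from day 5 as plated cultures. The 4 groups (WT day 0, 6A day 0, WT day 14, 6A day 14) had 2 libraries each, described as biological replicates. The series' design text names day 7, whereas the titles and protocols name day 14. The sources used here do not say how many clones stand behind the mutant.

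Each ribosome holds 1 copy of nearly every ribosomal protein, so the genes are read as a set whose output is kept near balance. Their messenger RNAs typically begin with a C followed by an unbroken run of pyrimidines, the 5′ terminal oligopyrimidine (TOP) motif. Through this run, translation of the set is coupled to the growth kinase mTORC1, which acts in part through the RNA-binding protein LARP1. Fast-dividing stem cells make ribosomes at a high rate, and transcription factors such as MYC and GABPA act on the promoters of many of these genes.

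The annotated start sites were searched for this motif. RefSeq promoter sequences (build GRCm38.p6, the build that mm10 names) were matched by symbol for 56 of the 76 members, which had 66 promoter entries. The following 30-base windows run from 15 bases before the annotated start, 5′ to 3′ on the gene's strand. Capitals mark at least 5 unbroken pyrimidines counted from a C within 5 bases of that start. Bases before that C were not checked, here or in the shares below. At Rpl28 a pyrimidine precedes it, and at Rpl34 all printed bases before it are pyrimidines. Rpl15 and Rps6 show long runs. The other 4 are shown because they pair a run, or its absence, near the start with a large fall (Rpl34, Rps12) or a small difference (Rpl28, Rpl22) at day 14.
Rpl15 (chr14:18270972-18271001, minus strand): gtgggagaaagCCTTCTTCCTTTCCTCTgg
Rps6 (chr4:86857353-86857382, minus strand): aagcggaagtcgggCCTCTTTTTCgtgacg
Rpl34 (chr3:130730323-130730352, minus strand): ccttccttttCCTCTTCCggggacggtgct
Rpl28 (chr7:4792950-4792979, plus strand): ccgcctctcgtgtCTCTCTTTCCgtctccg
Rps12 (chr10:23787195-23787224, minus strand): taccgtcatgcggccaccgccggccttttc
Rpl22 (chr4:152325711-152325740, plus strand): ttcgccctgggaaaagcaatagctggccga
Counted from the first marked C, the run was 17 bases long at Rpl15 and 10 bases long at Rps6 and at Rpl28.

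A C-started run of 5 or more pyrimidines at the start was found in 43.9% of the 66 member promoters and in 18.3% of all 32851 promoters. A run of 8 or more was found in 30.3% and 4.37%. In the whole 300-base promoter (250 bases before the start to 50 after, both strands), CCGGAAG, a core that ETS factors such as GABPA bind, was in 36.4% of member promoters and 8.86% of all. TCTTTCC was in 25.8% and 8.29%, and GGGCGG, the core of the GC box, in 60.6% and 35.7%. GCCAT, part of the YY1 site, was in 53.03% and 40.5%. CACGTG, the E-box that MYC binds, was in 12.1% and 7.15%, and the TATA sequence TATAAA in 9.09% and 13.6%. These are matches of letters in a window, with no reading of binding. GGGCGG and CCGGAAG can lie side by side, and TCTTTCC can fall inside a marked run.

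Library totals ran from 8146684 to 15540163 counts over all genes, and members' counts ran from 15 (Rpl26) to 22389 in a single library, so all 76 members were tested among 15458 genes. Values are normalised read counts (CPM, scaled to edgeR's TMM library sizes), and "called" means a Benjamini-Hochberg adjusted p under 0.05 over all tested genes in edgeR's quasi-likelihood test; errors of log2 fold changes are standard errors (SE). Undifferentiated-state markers were summed at 4907 to 5241 CPM in day 0 libraries and at 481 to 671 CPM at day 14. All 10 of them fell in each genotype. Hnrnpk itself was at 880 and 709 CPM in the WT libraries against 527 and 538 in the mutant ones at day 0, and at 495 and 474 against 348 and 385 CPM at day 14. Its lower level was called at both days (log2 fold change -0.58 ± 0.12, adjusted p = 0.0400, and -0.40 ± 0.12, adjusted p = 0.0434). At day 0 the adjusted p ranged up to 0.264 and at day 14 up to 0.289 when single libraries were left out. The day 0 call was also lost in a fit of the day 0 libraries alone (0.181), and the day 14 call with DESeq2 (0.0737), its size factors (0.0692) or no low-count filter (0.0634). A count per gene does not show the substitution. In bulk RNA, fewer cells of a type and less RNA per cell cannot be told apart.

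Members took 1.79% to 2.09% of all counts in WT day 0 libraries and 1.64% to 1.77% in 6A day 0 libraries. At day 14 they took 1.15% to 1.39% in WT and 1.12% to 1.28% in 6A. The messenger RNA had been selected only by removing ribosomal RNA, so other long and structural RNAs share these totals.

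Per kilobase of exon, large subunit genes held the highest places. The stalk protein gene Rplp1 (chr9:61913284-61914542) led with 1049 CPM per kb. Rpl4 (598), Rpl32 (591), Rpl41 (556) and Rpl8 (549.8 CPM per kb) followed; Rpl41 codes for a very short peptide and Rpl32 and Rpl8 for proteins of the large subunit body. The lowest were Rpl30 (2.20), Rpl34 (3.21), Rpl26 (3.83), the small subunit gene Rps27 (4.80) and Rpl36a (7.64 CPM per kb). These are levels over all exons annotated for a gene, retained introns included. With the length of the principal transcript instead, the same 5 genes were the highest and 4 of the 5 lowest stayed among the lowest 5. The order then changed, with Rpl41 (1116) and Rpl32 (1101) ahead of Rplp1 (1049 CPM per kb). Near-identical copies bear on these levels: 71 of the 76 members shared at least 1 exact 100-base stretch of their principal transcript with another annotated gene. The median member shared 40.6% of its 100-base stretches, and Rps27 shared 98.4%. The other 5 shared none, Rpl32 and Rpl22 among them. Across the 76 genes, the shared percentage and the mean CPM had a Spearman correlation of -0.54, as a description of genes within 1 set of libraries. The sources used here do not say how reads with several matches were counted.

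Nearly the whole set was lower after differentiation. In WT, 70 of 76 members were called lower at day 14 and 0 higher, where 36.8% of all tested genes were called lower and 38.4% higher. Of the large subunit genes 43 of 46 were lower, and of the small subunit genes 27 of 30. The median log2 fold change was -0.84 over the members, -0.95 over large and -0.77 over small subunit genes, against 0.04 over all tested genes. In 6A cells 64 of 76 were called lower and 0 higher, against 36.6% lower and 35.4% higher of all tested genes. These were 39 of 46 large and 25 of 30 small subunit genes, and the medians were -0.71, -0.78 and -0.65, against -0.03 over all tested genes. In all, 64 members were lower in both genotypes and 6 in WT alone, and the test of the difference between genotypes called none of those 6.

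**Figure D1:**
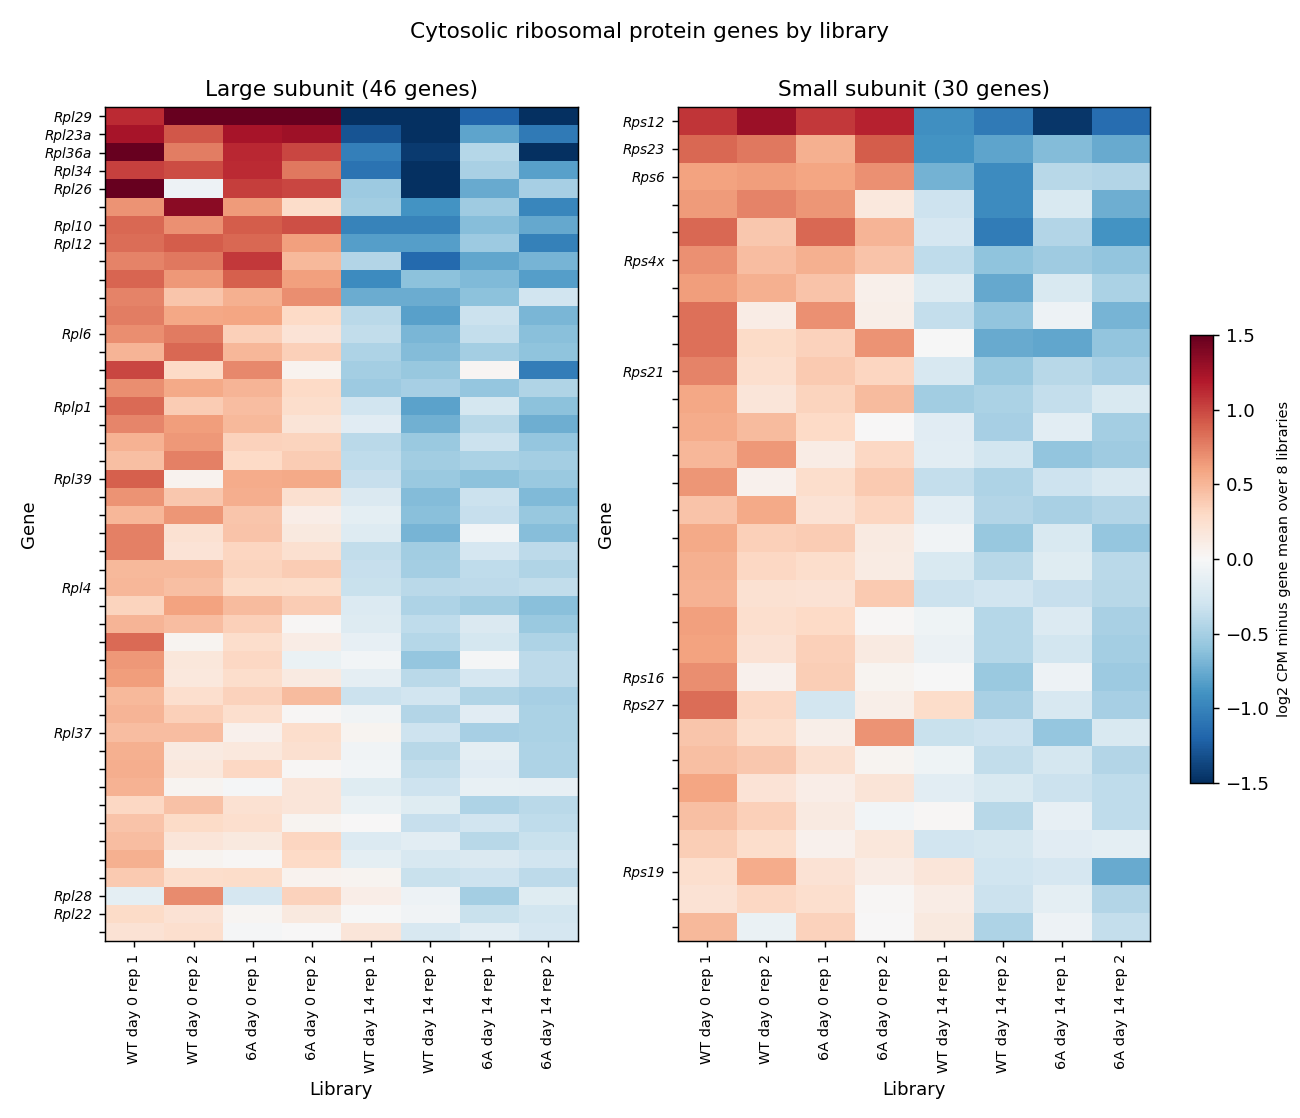
Colour shows log2 CPM of each member minus its mean over the 8 libraries, clipped at the ends of the scale, for large (left) and small (right) subunit genes; rows are ordered by the WT fold change, with the names of some genes shown, and columns are libraries. The day 0 columns are mostly red and the day 14 columns mostly blue, and the rows with the deepest colour are Rpl29, Rpl23a, Rpl36a, Rpl34 and Rps12.

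Among large subunit genes the deepest fall was that of Rpl29 (chr9:106429454-106431568), which codes for a small surface protein of the subunit. Rpl29 stood at 16.4 and 31.3 CPM in WT day 0, 21.5 and 24.1 in 6A day 0, 2.09 and 2.37 in WT day 14, and 3.28 and 2.41 in 6A day 14. All day 14 libraries were below all day 0 libraries. The log2 fold change was -3.43 ± 0.32 in WT (adjusted p = 6.33e-07) and -2.997 ± 0.31 in 6A (adjusted p = 1.82e-06).

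Rpl23a (chr11:78180932-78183584) codes for a protein at the rim of the nascent peptide exit tunnel. Rpl23a stood at 27.5 and 22.3 CPM in WT day 0, 27.5 and 28.2 in 6A day 0, 4.75 and 4.11 in WT day 14, and 6.76 and 5.599 in 6A day 14. It fell by 2.49 ± 0.19 on the log2 scale in WT (adjusted p = 5.00e-08) and by 2.17 ± 0.18 in 6A (adjusted p = 1.32e-07), and the days did not overlap. The printed start window of Rpl34 marks 8 bases that continue a pyrimidine run from upstream. Another annotated start of this gene has a run of 6. Rpl34 (chr3:130726831-130730398) stood at 13.8 and 13.3 CPM in WT day 0 and 14.7 and 11.7 in 6A day 0. At day 14 it stood at 3.13 and 2.37 CPM in WT and 4.83 and 3.86 in 6A. It fell by 2.32 ± 0.24 in WT (adjusted p = 7.85e-07) and by 1.599 ± 0.22 in 6A (adjusted p = 1.60e-05) on the log2 scale. The day 14 libraries of both genotypes were well below those of day 0. Rpl12 (chr2:32961559-32965345), a protein of the stalk base, stood at 61.1, 63.9, 61.9 and 52.5 CPM in the WT and 6A libraries of day 0 and at 19.2, 19.2, 23.4 and 16.9 CPM at day 14. It fell by 1.70 ± 0.16 in WT (adjusted p = 3.85e-07) and by 1.504 ± 0.16 in 6A (adjusted p = 1.42e-06). These genes share sequence with other annotated genes: 50.1% of the 100-base stretches for Rpl29 (with 27 genes), 80.0% for Rpl23a, 22.5% for Rpl34 and 46.8% for Rpl12.

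Among small subunit genes Rps12 (chr10:23785183-23787275), a protein of the subunit's beak, fell most. Rps12 stood at 58.6 and 67.9 CPM in WT day 0, 57.8 and 62.0 in 6A day 0, 14.7 and 13.4 in WT day 14, and 10.1 and 12.6 in 6A day 14. The log2 fold change was -2.18 ± 0.15 in WT (adjusted p = 1.79e-08) and -2.39 ± 0.16 in 6A (adjusted p = 1.04e-08), with no overlap between days. No C-started pyrimidine run began within 5 bases of its annotated start. The printed window does end in a C-started pyrimidine stretch, which begins beyond that limit. The Rps12 gene holds 3 annotated small nucleolar RNA genes.

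Rps23 (chr13:90922958-90924950), a protein of the decoding center, stood at 16.8 and 16.03 CPM in WT day 0, 13.4 and 17.4 in 6A day 0, 4.98 and 5.38 in WT day 14, and 5.89 and 5.50 in 6A day 14. It fell by 1.65 ± 0.20 in WT (adjusted p = 4.27e-06) and by 1.44 ± 0.20 in 6A (adjusted p = 1.56e-05) on the log2 scale. Rps6 (chr4:86854660-86857412), the protein phosphorylated by S6 kinase downstream of mTORC1, stood at 40.8 and 41.5 CPM in WT day 0, 40.7 and 43.3 in 6A day 0, 16.5 and 14.0 in WT day 14, and 20.1 and 19.9 in 6A day 14. The 4 day 0 libraries of Rps6 lay within 3 CPM of each other, and every day 14 library was near or below 20 CPM. Rps6 fell by 1.44 ± 0.14 in WT (adjusted p = 5.20e-07) and by 1.07 ± 0.14 in 6A (adjusted p = 8.24e-06).

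A few members differed little between days. Rpl22 (chr4:152325742-152334071), which also binds RNA outside the ribosome, stood at 296 and 282 CPM in WT day 0, 248 and 268 in 6A day 0, 242 and 233 in WT day 14, and 193 and 201 in 6A day 14. Rpl22 was called lower in WT (-0.28 ± 0.11, adjusted p = 0.0257) and in 6A (-0.39 ± 0.11, adjusted p = 0.00470). The WT call was lost without WT day 14 replicate 1 (adjusted p = 0.0952) or replicate 2 (0.103), in a fit of the WT libraries alone (0.0852), and with library totals as the only scaling (0.498).

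Rpl28 (chr7:4792874-4795066), whose start window holds a 10-base run, stood at 62.9 and 114 CPM in WT day 0, 58.6 and 88.3 in 6A day 0, 74.65 and 66.2 in WT day 14, and 49.1 and 61.6 in 6A day 14. The days overlapped, and the WT log2 fold change of -0.34 ± 0.30 (adjusted p = 0.332) was 0.15 without WT day 0 replicate 2 (adjusted p = 0.582); without WT day 0 replicate 1 the adjusted p was 0.0163. Other members not called in either genotype were Rpl14, Rps16, Rps26 and Rps27. Their fitted WT values lay between -1.23 and -0.36, on both sides of the member median of -0.84. The lack of a call was thus not a small difference in each of them. Rpl26 was the most uneven of the deep falls, at 13.5 and 4.03 CPM in the WT day 0 libraries (log2 fold change -2.09 ± 0.64, adjusted p = 0.0175).

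**Figure D2:**
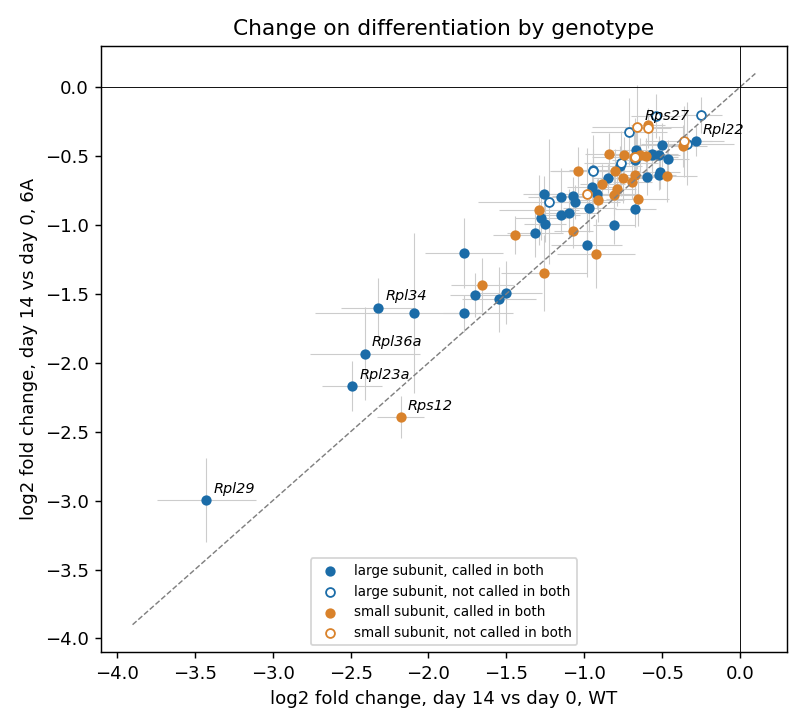
Each point is a member, with its log2 fold change between day 14 and day 0 in WT (x) and in 6A (y), SE bars, the line of equality dashed, large subunit genes in blue and small in orange; open points were not called in both genotypes. All 76 points lie below 0 on both axes, and Rpl29 is the farthest from 0, at -3.43 and -2.997.

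Features the naming rule did not use were set beside the size of the fall, as descriptions. The 27 members with a pyrimidine run at a start had a WT median of -0.84 and 23 of 27 called lower. The 29 with a promoter entry and no run had a median of -0.71 and 28 of 29 called lower. The 29 members with an annotated small nucleolar RNA gene inside had a WT median of -0.97 (27 of 29 lower), and the other 47 had -0.77 (43 of 47 lower). The sources used here do not say whether reads of those small RNAs entered the host genes' counts.

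Less abundant members had the deeper falls. The 32 members with a mean under 100 CPM had a WT median of -1.11, and the 44 above it had -0.76. Across the 76 genes the Spearman correlation of mean CPM with the log2 fold change was 0.38 in WT and 0.50 in 6A. The points share libraries, and the mean itself holds the day 14 values. For the shared share of 100-base stretches the correlation was -0.24 in WT and -0.25 in 6A. The 33 members with at least 50% of stretches shared had a WT median of -0.97 (32 of 33 lower), and the 43 below that had -0.80 (38 of 43 lower). The part of copy reads in the size of these falls was not tested.

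**Figure D3:**
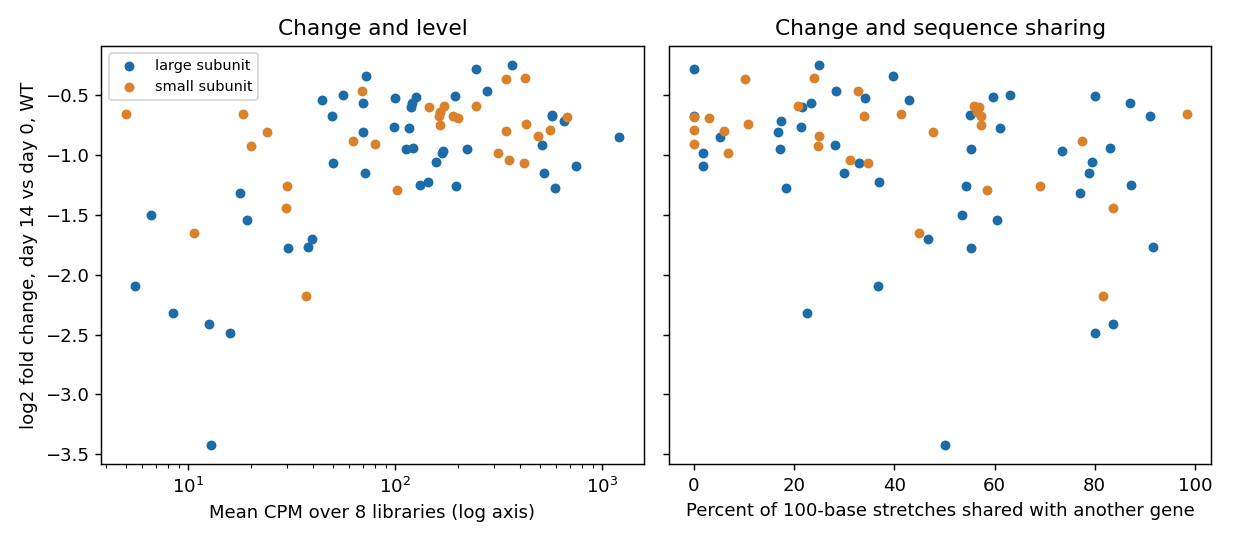
Each point is a member; y is the log2 fold change between day 14 and day 0 in WT, x is the mean CPM over 8 libraries on a log axis (left) or the percentage of 100-base stretches shared with another gene (right), and colours are subunits. The points below -2 lie under 100 CPM, and the points at 0% shared (5 genes) lie between -0.91 and -0.28.

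Large and small subunit genes fell together, with a small shift between them. Summed over all members, WT libraries held 22228 and 19340 CPM at day 0 and 13140 and 10600 CPM at day 14. The 6A libraries held 18836 and 16971 CPM at day 0 and 12221 and 10679 CPM at day 14. The sum of large over the sum of small subunit CPM was 1.49 and 1.55 in WT day 0, 1.48 and 1.499 in 6A day 0, 1.41 and 1.44 in WT day 14, and 1.405 and 1.43 in 6A day 14. Every day 14 ratio was below every day 0 ratio. With members under 50% shared stretches alone the ratio was 1.32 to 1.37 at day 0 and 1.25 to 1.29 at day 14, also without overlap. Without the abundant genes Rpl4, Rpl8 and Rplp0 the ratio was 1.08 and 1.09 in WT day 0 against 1.05 and 1.07 in WT day 14, and 1.056 and 1.08 in 6A day 0 against 1.04 and 1.056 in 6A day 14. The days were then still apart in WT, and in 6A the higher day 14 library was level with the lower day 0 library. The median over large minus that over small subunit genes was between -0.21 and -0.16 in WT under all 15 other settings, and between -0.16 and -0.12 in 6A. In the members with a mean of 100 CPM or more, the WT medians were -0.92 for 25 large and -0.69 for 19 small subunit genes. In 6A these medians were -0.65 and -0.50. The gap was narrower in the members with under 50% of stretches shared. Their WT medians were -0.83 for 24 large and -0.79 for 19 small subunit genes, and their 6A medians were -0.66 and -0.64.

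**Figure D4:**
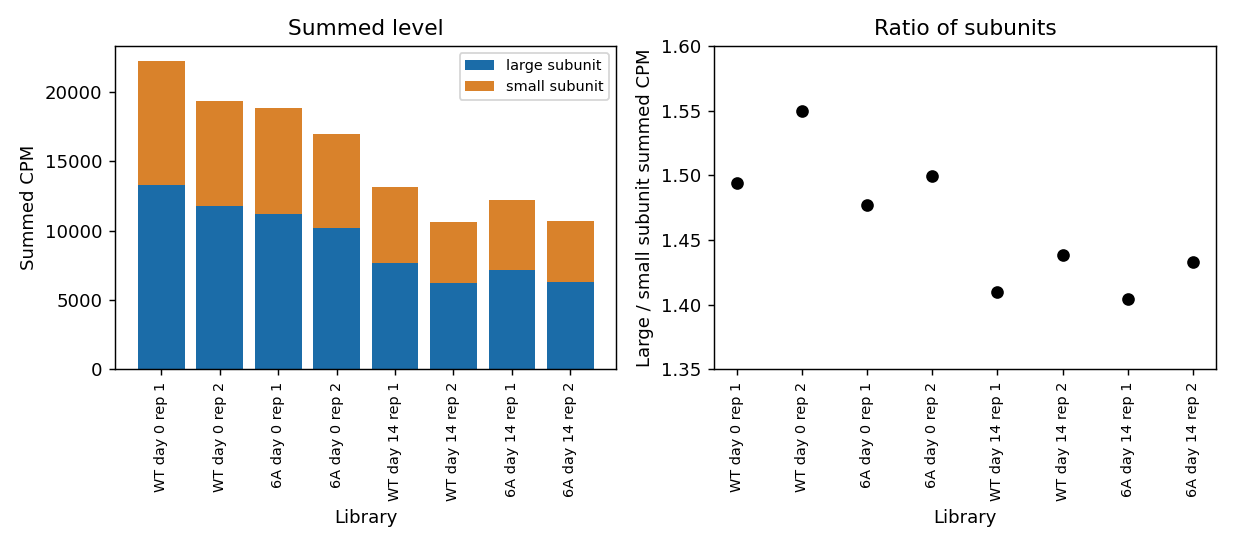
Left, bars from 0 show CPM summed over large (blue) and small (orange) subunit members in each library; right, points show the ratio of the summed values, on an axis that does not start at 0. The sums fall from 16971 to 22228 CPM at day 0 to 10600 to 13140 CPM at day 14, and the ratio from 1.48 to 1.55 down to 1.405 to 1.44.

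The 6A mutation did not give a called difference in any member. At day 0, edgeR called 0 of 76 members, against 1.58% of all tested genes; 9 members had an unadjusted p under 0.05, all lower in 6A, against 16.4% of all tested genes in either direction and 6.37% lower, and DESeq2 also called 0. The median log2 fold change of 6A over WT was -0.20 over members, -0.20 over large and -0.19 over small subunit genes, and 0.01 over all tested genes. Fitted values were below 0 for 64 of 76 members. Both 6A libraries were below both WT libraries for 28 of 76 members (17 of 46 large, 11 of 30 small), where 20.8% of all tested genes showed that order. The median was -0.08 without WT day 0 replicate 1, the library with the highest member sum, and -0.28 without WT day 0 replicate 2.

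Rpl6, a large subunit protein, had the smallest p at day 0. Rpl6 stood at 296 and 311 CPM in the WT libraries against 233 and 211 in the mutant ones. The 6A libraries were both lower, with a log2 fold change of -0.45 ± 0.13 and an adjusted p of 0.107, and the call appeared when no low-count filter was used (adjusted p = 0.0411) or with the replicate block (0.0381). Rps27, which carries a zinc-binding fold, had the lowest fitted value (-0.64 ± 0.28, adjusted p = 0.279), at 8.52 and 5.93 CPM in the WT libraries against 3.93 and 5.07 in the mutant ones. Rpl36 stood at 41.3 and 66.3 CPM in the WT libraries against 40.3 and 31.2 in the mutant ones (-0.60 ± 0.23, adjusted p = 0.235; 0.0326 without WT day 0 replicate 1). The same left-out library gave the opposite direction for Rpl39, which was then called higher in 6A (0.50, adjusted p = 0.0425) and in the difference of day effects (-0.63, adjusted p = 0.0383); with all libraries its day 0 value was 0.03 ± 0.23 (adjusted p = 0.970). At the other end were Rpl23a (0.17 ± 0.16, adjusted p = 0.637) and Rpl10 (0.17 ± 0.13, adjusted p = 0.538).

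Other RNAs were also set side by side at day 0. The 7 tested abundant small structural RNAs had a 6A over WT median of -0.56 (1 of 7 called lower), with overlapping sums of 7966 to 12377 CPM in WT and 5827 to 8299 CPM in 6A. That median was -0.0092 without WT day 0 replicate 1 and -0.84 without WT day 0 replicate 2. The 63 tested replication-dependent histone genes, whose messenger RNAs are short and lack a poly(A) tail, had a median of -0.44 (0 called, 16 of them lower and 3 higher at an unadjusted p under 0.05; up to 16 called lower when single libraries or settings changed). The 10 feeder fibroblast and mesenchyme markers had a median of 0.38, 2 of them called higher (0 to 5 over the other settings), with sums of 3751 to 4171 CPM in WT and 4424 to 5002 CPM in 6A, and none of the 10 was at 0 in any group. Their part in the members' values was not tested.

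At day 14, edgeR called 0 of 76 members between 6A and WT, against 13.6% of all tested genes; 8 had an unadjusted p under 0.05 (3 higher and 5 lower), against 26.4% of all tested genes, and DESeq2 called 0. The median was -0.06 over members, -0.02 over large and -0.07 over small subunit genes, and 0.00 over all tested genes. The median was 0.10 without WT day 14 replicate 1 and 0.05 without 6A day 14 replicate 2, so its sign rested on single libraries. Both 6A libraries were below both WT libraries for 12 of 76 members, against 28.5% of all tested genes.

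The highest fitted value at day 14 was that of Rpl34 (0.68 ± 0.27, adjusted p = 0.116), at 4.83 and 3.86 CPM in 6A against 3.13 and 2.37 in WT. Rps19, a small subunit protein needed for 18S ribosomal RNA maturation, had the lowest (-0.44 ± 0.19, adjusted p = 0.173), at 56.2 and 39.6 CPM in 6A against 75.8 and 54.2 in WT, and the groups overlapped. Rpl37 stood at 81.6 and 82.6 CPM in 6A and 118 and 92.9 CPM in WT (-0.36 ± 0.13, adjusted p = 0.0905). Its adjusted p was 0.0477 in a fit of the day 14 libraries alone and 0.0499 without WT day 14 replicate 2. In the same libraries, markers of other cell types differed between genotypes: 6 of 6 cardiac genes and 6 of 8 neural genes were lower in 6A and 6 of 6 blood genes were higher. Their sums were 1298 and 1488 against 219 and 211 CPM for cardiac genes and 22.1 and 22.5 against 127 and 127 CPM for blood genes. None of these marker genes was at 0 in either day 14 group. Of the 10 undifferentiated-state markers, 4 were called higher in 6A at day 14 (1 to 6 over the other settings), with a median of 0.48 and sums of 671 and 652 against 515 and 481 CPM. Their part in the members' values was not tested.

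The test of whether the day effect differed between genotypes called 0 of 76 members in edgeR and in DESeq2, against 4.74% of all tested genes; 2 members, Rpl34 (0.72 ± 0.33, adjusted p = 0.256) and Rpl6 (0.49 ± 0.19, adjusted p = 0.178), had an unadjusted p under 0.05, against 18.8% of all tested genes. The median difference was 0.18 over the members, a smaller fall in 6A, and it was 0.03 without WT day 14 replicate 2, 0.05 without WT day 0 replicate 1 and 0.30 without WT day 14 replicate 1. Groups of 2 libraries leave wide intervals, and a p above the threshold does not show that the genotypes were alike.

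Ribosomal protein genes outside the naming rule also fell. Fau (fused to ubiquitin-like sequence), Rps3a1 and Gnb2l1 (the scaffold protein RACK1 of the small subunit) were called lower at day 14 in both genotypes. Their log2 fold changes in WT were -1.37 ± 0.27 for Fau, -1.13 ± 0.13 for Rps3a1 and -0.74 ± 0.16 for Gnb2l1, and in 6A -1.27 ± 0.27, -1.15 ± 0.13 and -0.49 ± 0.16. Rps3a1 stood at 49.98 and 46.6 CPM in WT day 0, 45.6 and 45.9 in 6A day 0, 21.6 and 22.5 in WT day 14, and 20.8 and 20.4 in 6A day 14. The 6A call of Gnb2l1 was lost without 6A day 0 replicate 1 (0.111) or 6A day 14 replicate 2 (0.133), and with library totals as the only scaling (0.0513).

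The paralogs, alternative copies expressed in particular tissues or stages, also fell. All 7 tested were lower at day 14 in both genotypes, with medians of -1.97 in WT and -1.43 in 6A. Rpl10l, a retrogene copy of the X-linked Rpl10 known from male germ cells, stood at 48.7 and 47.6 CPM in WT day 0, 58.1 and 53.01 in 6A day 0, 1.62 and 1.74 in WT day 14, and 3.86 and 2.61 in 6A day 14. It fell by 4.82 ± 0.21 in WT (adjusted p = 1.68e-10) on the log2 scale. Rps4l, a copy of Rps4x, stood at 605 and 503 CPM in WT day 0, 558 and 394 in 6A day 0, 66.9 and 49.2 in WT day 14, and 116 and 81.5 in 6A day 14.

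At day 14, 2 of the 7 tested paralogs were called higher in 6A, against 824 of all 15458 tested genes. Rpl7l1 stood at 105.4 and 107 CPM in 6A and 73.1 and 79.95 CPM in WT (0.47 ± 0.11, adjusted p = 0.0101). The call was lost without WT day 14 replicate 1 (0.102), 6A day 14 replicate 1 (0.0630) or 6A day 14 replicate 2 (0.0719). Rpl10l differed by 0.93 ± 0.27 (adjusted p = 0.0361), and its call was lost without WT day 14 replicate 1 (0.157), 6A day 14 replicate 1 (0.350) or WT day 14 replicate 2 (0.154). DESeq2 gave Rpl10l an adjusted p of 0.0587, and a fit of the day 14 libraries alone gave 0.0723.

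Genes that make ribosomes fell as well, with lower medians than the members. All 40 tested ribosome biogenesis genes were lower at day 14 in both genotypes, with medians of -1.92 in WT and -1.65 in 6A. Heatr1, a factor of the small subunit processome, stood at 675 and 678 CPM in WT day 0, 627 and 666 in 6A day 0, 78.5 and 86.8 in WT day 14, and 118 and 128 in 6A day 14. Of the 15 RNA polymerase I genes, which transcribe ribosomal RNA, 14 were lower in each genotype, with medians of -1.58 and -1.42. Polr1b, the second largest polymerase I subunit, fell by 2.696 ± 0.18 in WT (adjusted p = 1.82e-08). At day 14, 5 of the 40 biogenesis genes were called higher in 6A than in WT, a count that ran from 0 to 9 over the other settings. Of all 15458 tested genes, 824 were called higher in 6A at day 14, and 13.6% were called in either direction. The undifferentiated-state markers, 4 of 10 of them higher, moved in the same direction as these 5 biogenesis genes. Their part in the biogenesis count was not tested. Heatr1 had the smallest adjusted p of the 5 biogenesis genes (0.58 ± 0.11, adjusted p = 0.00362). Its log2 fold change was 0.50 without WT day 14 replicate 1.

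Translation factors whose messenger RNAs carry the TOP motif or are linked to it fell about as far as the members. Of 22 such genes, 16 were lower in WT and 17 in 6A, and the medians were -0.83 and -0.75. Eef1b2, an exchange factor of the elongation cycle, stood at 638 and 566 CPM in WT day 0 and 310.2 and 277 CPM in WT day 14 (-1.04 ± 0.12, adjusted p = 2.02e-06). All 7 tested small nucleolar RNA host genes with the TOP motif were lower, with medians of -1.59 in WT and -1.82 in 6A. Gas5, the best known of them, fell by 1.85 ± 0.11 in WT (adjusted p = 3.81e-09).

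Of 19 regulators of ribosomal protein synthesis, 15 were lower and 1 higher in WT, and 14 lower and 1 higher in 6A. Myc stood at 112 and 132 CPM in WT day 0, 105.001 and 98.5 in 6A day 0, 36.2 and 37.1 in WT day 14, and 35.8 and 38.3 in 6A day 14. Eif4ebp1, a translational repressor and mTORC1 substrate, fell by 1.96 ± 0.12 in WT (adjusted p = 4.58e-09). Of 13 p53 targets and related genes, 8 were lower and 3 higher in WT, and 7 lower and 2 higher in 6A. Mitochondrial ribosomal protein genes, which build a separate ribosome, were lower for 66 of 77 in WT (1 higher, median -1.07) and for 68 of 77 in 6A (0 higher, median -0.91).

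Reads assigned to the 129 or the CAST allele gave a separate readout, since the rule used neither. At least 20 allele-assigned reads in every library were found for 67 members, 64 of them autosomal. Over all autosomal genes the median 129 share of allele-assigned reads was 96.0% to 98.3% in each library, which differs from the even share that a hybrid genome would give for most genes. The sources used here do not name the method of assignment. Among the autosomal members, 29 were above 90% in every library, Rpl19 and Rpl38 were below 10% in every library, and Rplp1 and Rps21 were between 40% and 60% in every library.

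The 4 X-linked members are Rps4x, Rpl10, Rpl39 and Rpl36a, and the rest lie on 18 autosomes. All 4 were lower at day 14 in both genotypes. The small subunit protein gene Rps4x (chrX:102184941-102189394) stood at 629.97 and 539 CPM in WT day 0, 568 and 527 in 6A day 0, 300 and 257 in WT day 14, and 272 and 259 in 6A day 14. It fell by 1.07 ± 0.12 in WT (adjusted p = 2.55e-06) and by 1.05 ± 0.12 in 6A (adjusted p = 3.70e-06). Rpl10 (chrX:74270812-74273135), a late-joining protein near the peptidyl transferase center, stood at 58.1 and 51.3 CPM in WT day 0, 60.2 and 62.5 in 6A day 0, 15.996 and 15.97 in WT day 14, and 20.6 and 18.8 in 6A day 14. It fell by 1.77 ± 0.14 in WT (adjusted p = 4.89e-08) and by 1.64 ± 0.13 in 6A (adjusted p = 1.00e-07). Rpl39 (chrX:37082520-37085402) stood at 290.1 and 161 CPM in WT day 0, 228 and 231 in 6A day 0, 122 and 106 in WT day 14, and 101 and 106 in 6A day 14. Rpl36a (chrX:134585654-134588062) stood at 27.1 and 16.03 CPM in WT day 0, 20.6 and 19.0 in 6A day 0, 4.64 and 3.48 in WT day 14, and 7.05 and 3.28 in 6A day 14. The levels of all 4 separated the days in both genotypes, as did those of 74 of 76 members in WT and 73 in 6A. Both day 14 libraries were below both day 0 libraries for 41.7% of all tested genes in WT and 44.3% in 6A.

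The 129 share of X-linked genes moved with the day. The median over 274 X-linked genes was 51.3% to 54.1% in day 0 libraries, 9.83% and 10.4% in WT day 14, and 13.6% and 14.6% in 6A day 14. Rps4x kept a higher 129 share than that median: 86.7% and 83.3% in WT day 0, 85.8% and 88.1% in 6A day 0, 72.6% and 77.2% in WT day 14, and 75.0% and 82.6% in 6A day 14. Its log2 ratio of 129 to CAST reads fell by 0.92 ± 0.15 in WT (adjusted p = 5.79e-09) and by 0.83 ± 0.15 in 6A (adjusted p = 2.17e-07). Rpl10 was at 66.96% and 61.8% in WT day 0, 63.2% and 69.2% in 6A day 0, 36.9% and 35.7% in WT day 14, and 40.2% and 40.4% in 6A day 14. Its log2 ratio fell by 1.65 ± 0.35 in WT (adjusted p = 3.08e-05) and by 1.55 ± 0.32 in 6A (adjusted p = 9.86e-06).

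Rpl39 was between 99.4% and 100% in every library, above the autosomal median, and Rpl36a had 1 allele-assigned read in each of 2 libraries and 0 in the others. Rpl10 shares 91.6% of its 100-base stretches with 10 other annotated genes, Rps4x 34.8% with 4 and Rpl39 1.75% with 1. For the ratio, edgeR called 19 of 67 members in WT between days (5 toward 129, 14 toward CAST), against 19.6% of all 8887 genes tested. In 6A it called 13 of 67 (5 toward 129, 8 toward CAST), against 22.7%. With at least 50 allele-assigned reads required in every library, 13 members were called in WT and 12 in 6A. That higher minimum can leave fewer members tested. Among all X-linked genes tested, 251 of 274 shifted toward CAST in WT and 253 of 274 in 6A. Between genotypes 0 of 67 members were called at day 0, against 0.27% of all genes tested, and 0 of 67 at day 14, against 0.0563%. With an unadjusted p under 0.05 there were 3 members at day 0, against 7.39% of all genes tested, and 5 at day 14, against 4.4%.

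Autosomal members also shifted. The 129 share of Rpl22 was 93.9% and 95.0% in WT day 0, 93.5% and 92.4% in 6A day 0, 99.4% and 98.1% in WT day 14, and 99.1% and 98.8% in 6A day 14. Every day 14 value of Rpl22 was above every day 0 value. The median over all autosomal genes moved in the same direction. This median was 96.0% to 96.4% in day 0 libraries and 97.98% to 98.3% in day 14 libraries. The part of this general rise in the shift of Rpl22 was not tested. Rpl10a went the other way, at 37.7% and 38.5% in WT day 0, 46.5% and 34.1% in 6A day 0, 28.9% and 17.8% in WT day 14, and 23.2% and 18.7% in 6A day 14. Both genes were called in both genotypes. They were chosen after their values were seen, as the autosomal members with the clearest opposite shifts.

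**Figure D5:**
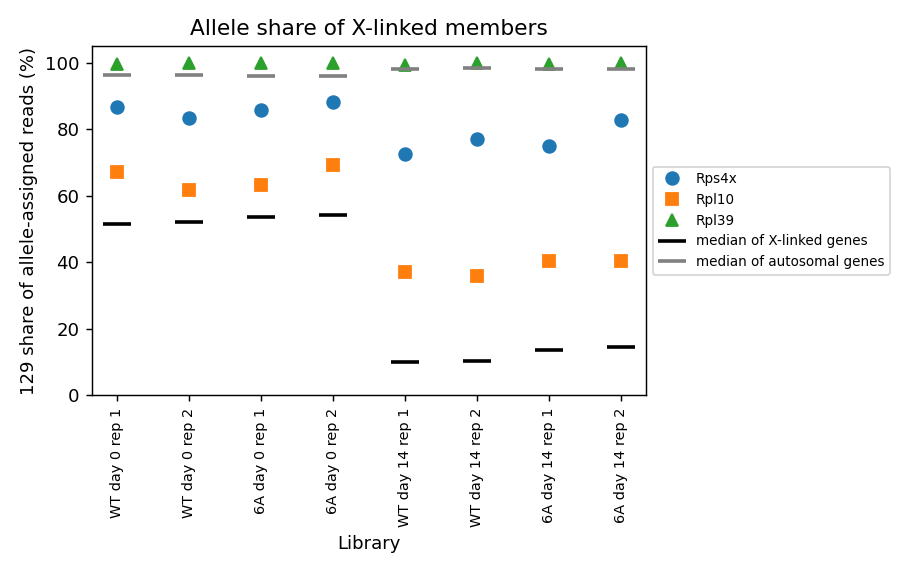
Points show the 129 share of allele-assigned reads in each library for the X-linked members Rps4x, Rpl10 and Rpl39; black bars are the median over 274 X-linked genes and grey bars the median over autosomal genes. From day 0 to day 14 the X-linked median falls from 51.3% to 54.1% down to 9.83% to 14.6%, Rpl10 from 61.8% to 69.2% down to 35.7% to 40.4%, and Rps4x from 83.3% to 88.1% down to 72.6% to 82.6%, while Rpl39 stays at 99.4% or more.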

How the data were processed

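The deposited tables hold raw read counts per gene (all reads, reads of the CAST allele, reads of the 129 allele) for 8 libraries of rRNA-depleted total RNA, sequenced as 150-base pairs per the labels' protocols. The submitters' processing notes name cutadapt 1.4.2, STAR 2.7.10a and mm10. The sources used here name no counter, strand setting, annotation or allele method. Genes kept by filterByExpr (15458) were fitted over all libraries with edgeR 4.0.16 (TMM, robust quasi-likelihood, common biological coefficient of variation 0.111, Benjamini-Hochberg), 1 coefficient per group. Allele counts were fitted with a term per library, for genes with 20 or more allele reads in each, and with 50 or more as an alternative. The fit was first tested on simulated counts. Lengths, positions and shared 100-base stretches came from GENCODE mouse release 21 (23264 of 24421 symbols matched), start windows from RefSeq. Alternatives were other scalings, no filter, DESeq2 1.42.0, fewer groups, a replicate block and each library left out. The members and gene lists were chosen with earlier results of these data known. Named were members by smallest p, extreme fold change, level and X linkage, and up to 4 genes of each other list by adjusted p. Library totals set the counting precision. P-values measure the spread between 2 libraries a group. Over all tested genes, same-numbered libraries' deviations correlated at 0.00422 to 0.237 between groups, and the main fit did not take the numbers as pairs. For the members, however, replicate 1 had the higher sum and the lower large over small ratio in every group. The replicate block is the alternative that takes the numbers into account. Protein sequences were not used here. Some genes are not reported here by name.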

Additional observations from a re-analysis of the deposited data

Results flagged for a closer look

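The difference between genotypes in the day effect was tested for all genes, and 4.74% of them were called. Among markers, 5 of 8 neural, 3 of 6 cardiac and 2 of 10 feeder and mesenchyme genes had a called negative difference. It was positive for 3 of 6 blood and 1 of 4 endothelium genes. Of 63 histone genes, 2 were called in each direction. Among the genes that make ribosomes or regulate ribosomal protein synthesis, 5 passed. The fall from day 0 to day 14 was smaller in 6A for Rrp9 (difference in log2 fold change 0.68 ± 0.18, adjusted p = 0.0497), Nop2 (0.58 ± 0.15, adjusted p = 0.0499), Heatr1 (0.64 ± 0.16, adjusted p = 0.0328), Polr1a (0.62 ± 0.16, adjusted p = 0.0449) and Mycn (0.71 ± 0.18, adjusted p = 0.0348) in edgeR's test. None of the 5 is a member; Rrp9, Nop2 and Heatr1 act in ribosome biogenesis, Polr1a is the largest subunit of RNA polymerase I, and Mycn is a transcription factor of the MYC family. Single libraries ended each call: the adjusted p rose to as much as 0.237 for Rrp9 and 0.202 for Mycn without 6A day 0 replicate 2, to 0.238 for Nop2 and 0.159 for Polr1a without the same library, and to 0.132 for Heatr1 without 6A day 0 replicate 1. With library totals as the only scaling, 4 of the 5 calls were also lost (Heatr1 0.0583, Nop2 0.0737, Polr1a 0.0671 and Rrp9 0.0647). Of the 10 undifferentiated-state markers, 2 had a called difference of the same sign (median 0.52), and their part was not tested.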

How the results depend on the processing

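In 15 other settings the members called lower at day 14 numbered 54 to 74 in WT and 48 to 72 in 6A, with 0 called higher in any. Between genotypes, 1 member (Rpl6) was called at day 0 with no filter and with the replicate block (adjusted p = 0.0381). With single libraries left out, 0 to 2 were called at day 0, 0 to 1 at day 14 and 0 to 1 in the difference of day effects; fitted on the day 14 libraries alone, 1 was called at day 14 (Rpl37). The replicate block called 74 members in WT and 72 in 6A. The median 6A over WT difference at day 14 lay between -0.18 and 0.10 with single libraries left out, positive without WT day 14 replicate 1 (0.10) or 6A day 14 replicate 2 (0.05). The WT day effect's median was -0.65 with library totals as the only scaling, where the median over all genes was 0.24, against 0.04 with TMM; it lay between -0.97 and -0.68 with single libraries left out. The difference of day effects lay between 0.031 and 0.30. Single genes that turned sign, none of them called with the turned sign, were Rps28 at day 0 (adjusted p = 1.0 without WT day 0 replicate 2, 0.804 without 6A day 0 replicate 2, 0.517 to 1.0 over all libraries left out), Rpl26 at day 14 (0.972 without WT day 14 replicate 2, range 0.378 to 0.972) and Rpl28 in WT (0.582 without WT day 0 replicate 2, range 0.0163 to 0.592). Counts as low as 15 limit Rpl26, Rpl29, Rpl30 and Rpl34. The ratio without 3 genes, the low-sharing ratio, the principal length and the list counts were alternatives chosen after seeing the data. The causes were not tested.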
